A study of Homo sapiens with 6 samples.

Results

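The 6 genes described here had deep falls after silencing of Che-1 in myeloma cells: C2orf54, GABRB2, STS, COL18A1, PCCB and ABCC4. They were picked from the measured values, for large falls in siChe-1, so their falls on either scale are given as a description, with no test. The 6 genes are 6 of the 16444 genes in the authors' spike-in table and 6 of the 12075 genes in their FPKM table (fragments per kilobase of transcript, scaled to the depth of the library). The data come from KMS-27 (labelled KMS27), a human cell line from bone marrow of multiple myeloma, a cancer of antibody-secreting plasma cells. One group, siControl, had 3 control libraries, and the other, siChe-1, had 3 libraries with Che-1 silencing. Che-1 is the protein encoded by AATF. Both groups shared the cell line and the same preparation of 500 ng of total RNA after removal of ribosomal RNA, and all libraries came from this 1 line. The reagent, its dose and the time after silencing were not given in the sources used here. Labels leave unsaid whether libraries of 1 group stem from separate cultures, and p-values here reflect only the library-to-library spread, possibly a technical one.

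The 6 genes have unlike roles. C2orf54, now named MAB21L4, encodes a protein of the Mab-21 domain family. GABRB2 encodes the beta-2 subunit of the GABA-A receptor, the chloride channel opened by the neurotransmitter GABA in neurons. STS encodes steroid sulfatase, which removes sulfate from steroid sulfates such as dehydroepiandrosterone sulfate and so makes precursors of active hormones. PCCB encodes the beta subunit of propionyl-CoA carboxylase, the mitochondrial enzyme that carries propionyl-CoA from branched-chain amino acids and odd-chain fatty acids towards the citric acid cycle. COL18A1 encodes the chain of collagen XVIII, a basement membrane collagen whose end fragment is endostatin. ABCC4 encodes MRP4, a membrane pump that exports cyclic nucleotides, prostaglandins and drugs.

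Transcripts of COL18A1 and C2orf54 start at different sites, and both genes had values for each transcript, so their promoters are shown first. The sequences are RefSeq windows on GRCh38.p14, 5' to 3' on the gene's strand, from 250 bases before the start to 30 bases after it. Capitals mark matches to any of 7 motifs searched on both strands. The 2 COL18A1 starts lie 50357 bases apart and the 2 C2orf54 starts 4121 bases apart. The windows are chr21:45404915-45405194 (plus strand) for COL18A1 NM_130445, chr21:45455272-45455551 (plus strand) for COL18A1 NM_030582, chr2:240896127-240896406 (minus strand) for C2orf54 NM_001085437 and chr2:240892006-240892285 (minus strand) for C2orf54 NM_024861.
COL18A1 NM_130445: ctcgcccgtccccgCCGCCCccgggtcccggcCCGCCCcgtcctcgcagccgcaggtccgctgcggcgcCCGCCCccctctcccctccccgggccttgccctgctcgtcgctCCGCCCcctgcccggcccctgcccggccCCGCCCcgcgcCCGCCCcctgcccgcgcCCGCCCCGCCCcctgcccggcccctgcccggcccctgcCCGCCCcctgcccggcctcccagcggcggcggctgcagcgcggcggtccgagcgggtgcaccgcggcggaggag
COL18A1 NM_030582: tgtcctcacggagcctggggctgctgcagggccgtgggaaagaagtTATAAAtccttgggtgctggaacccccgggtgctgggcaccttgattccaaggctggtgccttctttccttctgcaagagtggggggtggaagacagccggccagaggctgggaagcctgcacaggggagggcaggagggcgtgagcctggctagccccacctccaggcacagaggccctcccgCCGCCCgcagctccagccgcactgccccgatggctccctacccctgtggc
C2orf54 NM_001085437: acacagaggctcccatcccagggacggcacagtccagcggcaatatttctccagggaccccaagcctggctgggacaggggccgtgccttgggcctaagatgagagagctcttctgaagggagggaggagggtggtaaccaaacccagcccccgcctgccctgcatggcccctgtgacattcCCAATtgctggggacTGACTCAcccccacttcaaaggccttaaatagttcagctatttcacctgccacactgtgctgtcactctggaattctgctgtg
C2orf54 NM_024861: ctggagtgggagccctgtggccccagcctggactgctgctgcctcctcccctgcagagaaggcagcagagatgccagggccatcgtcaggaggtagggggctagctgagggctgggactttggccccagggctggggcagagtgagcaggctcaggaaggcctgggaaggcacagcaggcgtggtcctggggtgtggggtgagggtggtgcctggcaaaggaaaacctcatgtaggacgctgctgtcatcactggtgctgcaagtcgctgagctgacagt

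The COL18A1 NM_130445 window, scored over 300 bases with 50 after the start, held 86.7% G and C and 46 CpG pairs. Its GC content was above that of 99.9% of the 35116 promoter windows of this length, whose medians were 58.7% and 14 CpG pairs. It held 9 matches to the GC box GGGCGG, some of them overlapping, and this motif is found in 45.0% of all windows. The NM_030582 window of the same gene had 66.3% G and C, 10 CpG pairs, 1 GC box and 1 TATA box (TATAAA, in 11.5% of windows). In C2orf54, the NM_001085437 window held a CCAAT box (CCAAT, in 34.6% of windows) and an AP-1 site (TGANTCA, in 7.71%), with 59.3% G and C. The NM_024861 window of C2orf54 held none of the 7 motifs, with 64.3% G and C. A match is a description of the letters, not a binding site.

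Among the other genes, the ABCC4 window had 79.7% G and C, 47 CpG pairs and 1 ETS site (CCGGAAG, in 10.3% of windows). The PCCB window had 59.3% G and C with 22 CpG pairs, and the STS window 49.0% with 5 CpG pairs. Neither of these held any of the 7 motifs, which also included the E-box (CACGTG, in 7.26% of windows) and the NRF1 site (in 1.24%). None of the 7 motifs was found in all of the matched windows. For GABRB2 no window lay within 50 bases of the start of its transcript.

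The deposited data have 2 scales. On the spike-in scale, read counts are scaled by external control RNAs, so a fall of all genes against these controls shows as a fall. Whether that is a fall per cell depends on whether the controls were added per cell or per amount of RNA, which is not known here. On the FPKM scale each library is set against its own total, so that a fall common to all genes disappears. In these bulk samples, fewer cells of a type and less RNA per cell cannot be told apart. The authors' spike-in table holds 3 siControl libraries and siChe-1 replicates 1 and 2. siChe-1 replicate 3 is therefore not in the spike-in values below. The silenced gene, AATF, had 7157, 9855 and 10905 normalized reads in siControl and 672 and 549 in siChe-1, and 97.0, 88.8 and 119 FPKM in siControl against 14.2, 14.2 and 16.9 in siChe-1. The labels of both groups matched this check in every library.

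On the spike-in scale the median of all genes fell, with a log2 change of -1.25 and quartiles of -1.51 and -0.97. All 6 genes had lower values in both siChe-1 libraries than in any siControl library, a pattern shown by 89.5% of all genes averaging 10 or more normalized reads, so it says nothing particular about them. The scaling factor of a library is common to all genes, and it lowers siControl replicate 1 against replicates 2 and 3. In unscaled siControl reads, STS had 10174, 9659 and 11375 and ABCC4 had 1960, 1628 and 2071, both lowest in replicate 2. The low place of replicate 1 below is thus in part one of scaling.

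C2orf54 had 1478, 3049 and 2757 normalized reads in siControl replicates 1, 2 and 3 and 221 and 199 in siChe-1 replicates 1 and 2. siControl replicate 1 was far below the other two, and both siChe-1 values lay below it by more than the siControl SD. Its group means were 2428 ± 835 (SD, n = 3) in siControl and 210 (n = 2) in siChe-1, which left 8.64% of the siControl level, with a log2 change of -3.53 in the authors' deposited table.

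GABRB2, with the fewest reads of the 6, had 216, 351 and 357 normalized reads in siControl and 28.1 and 25.2 in siChe-1. The groups were well apart, with siControl replicate 1 again the lowest of its group. Its group means were 308 ± 79.9 (SD, n = 3) in siControl and 26.6 (n = 2) in siChe-1, or 8.65% left, with a log2 change of -3.53 in the authors' deposited table. The siChe-1 values rest on 42 and 48 reads, with exact Poisson 95% intervals of 30.3 to 56.8 and 35.4 to 63.6 reads that cover counting error only.

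STS, with the most reads, had 11316, 15607 and 17154 normalized reads in siControl and 1869 and 1469 in siChe-1. Its lowest siControl library exceeded its highest siChe-1 library 6.05-fold. The mean of 14692 ± 3025 (SD, n = 3) became 1669 (n = 2), or 11.4% left, with a log2 change of -3.14 in the authors' deposited table.

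COL18A1 had 2913, 6053 and 4729 normalized reads in siControl and 582 and 499 in siChe-1. Its siControl libraries differed about as widely as those of C2orf54, and again replicate 2 was highest and replicate 1 lowest. Its group means were 4565 ± 1576 (SD, n = 3) in siControl and 541 (n = 2) in siChe-1, or 11.8% left, with a log2 change of -3.08 in the authors' deposited table.

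PCCB had 1547, 2601 and 2292 normalized reads in siControl and 318 and 276 in siChe-1. Its order of siControl libraries was that of C2orf54 and COL18A1. Its group means were 2147 ± 542 (SD, n = 3) in siControl and 297 (n = 2) in siChe-1, or 13.8% left, with a log2 change of -2.85 in the authors' deposited table.

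ABCC4 had 2180, 2631 and 3123 normalized reads in siControl and 614 and 522 in siChe-1. Its groups lay closer together than those of the other 5, with the lowest siControl library 3.55-fold above the highest siChe-1 library. Its group means were 2645 ± 472 (SD, n = 3) in siControl and 568 (n = 2) in siChe-1, or 21.5% left, with a log2 change of -2.22 in the authors' deposited table.

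**Figure D1:**
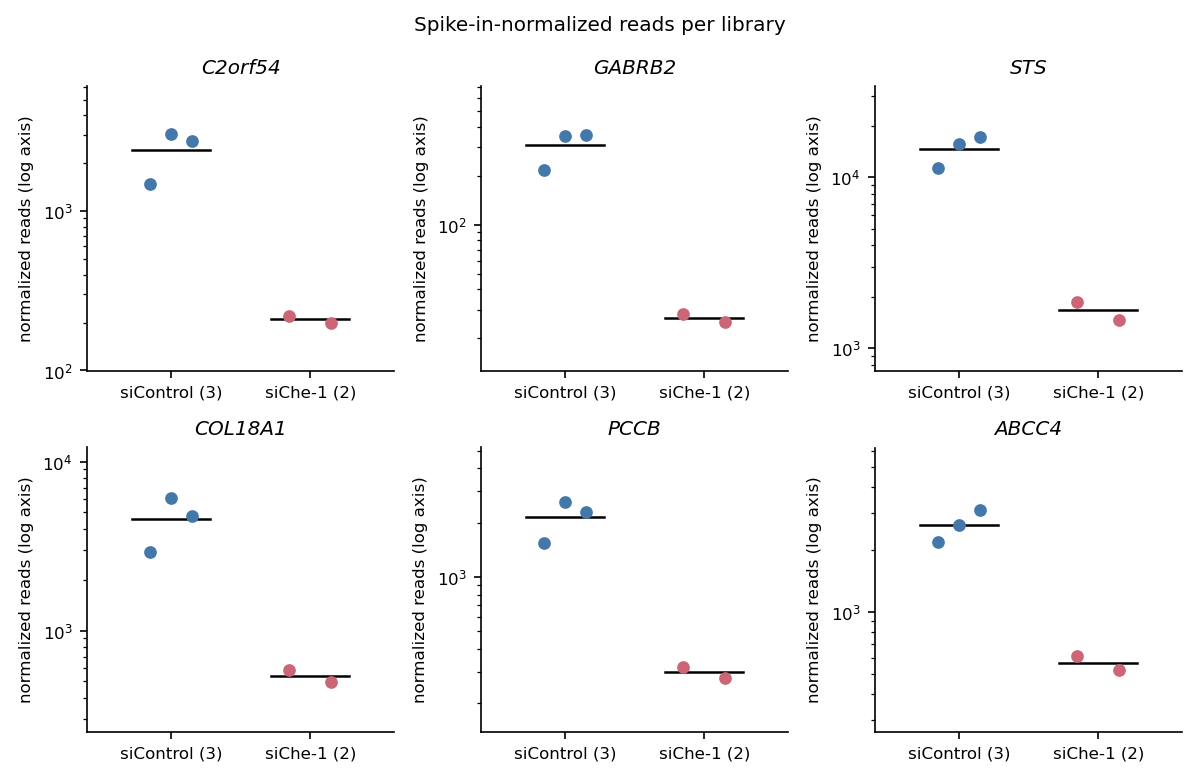
Spike-in-normalized reads of each gene (y axis, log scale) for the 3 siControl libraries and siChe-1 replicates 1 and 2, with a bar at each group mean. Both siChe-1 points of each gene lie below its 3 siControl points. After scaling by factors common to all genes, siControl replicate 1 is the lowest siControl library for all 6.

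The place of the 6 genes among all genes differed. Of 10141 genes averaging 100 or more normalized reads, AATF, the gene silenced, ranked 1 by fall, with a log2 change of -3.93, and C2orf54 and GABRB2 ranked 2 and 3. Over the 12591 genes averaging 10 or more, which adds genes of few reads, the ranks were 8 for AATF, 16 for C2orf54, 17 for GABRB2, 41 for STS, 43 for COL18A1, 72 for PCCB and 331 for ABCC4. In the ranking from 100 reads, STS was at 9, and the 5 genes between GABRB2 and STS were CXCL10, SCARB1, CR2, MTUS1 and SPR, from -3.42 to -3.17. COL18A1 ranked 11, just after TRNP1 (-3.09) and ahead of DDN (-2.98), PCCB ranked 16 and ABCC4 ranked 160. For ABCC4, 153 genes besides AATF and the other 5 had larger falls, so that it was not among the deepest falls. Set against the median of all genes, the log2 changes were -2.28 for C2orf54 and GABRB2, -1.89 for STS, -1.83 for COL18A1, -1.60 for PCCB and -0.97 for ABCC4.

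The FPKM table gave 3 values per group, listed without a replicate number. Of the 6 genes, 5 passed the minimum mean of 10 FPKM set for testing, and GABRB2 did not, so these 5 are not all 6. In every gene the siChe-1 values lay below the siControl values as deposited, which was so for 30.3% of the 6285 genes averaging 10 FPKM or more.

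C2orf54 had 23.7, 34.1 and 29.1 FPKM in siControl and 5.24, 7.16 and 5.45 in siChe-1. The siControl libraries were spread widely and the siChe-1 libraries less so. The mean went from 28.95 ± 5.22 to 5.95 ± 1.05 FPKM (SD, n = 3 each), or 20.5% left. On the log2(FPKM + 1) scale, after rescaling across libraries, the change was -2.02, with a standard error of 0.20.

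GABRB2 had 1.41, 1.25 and 1.44 FPKM in siControl and 0.328, 0.274 and 0.302 in siChe-1. Both groups were tight and far apart, at a level under the minimum. The mean went from 1.37 ± 0.102 to 0.301 ± 0.0270 FPKM (SD, n = 3 each), or 22.0% left. The change was -0.82 on the log2(FPKM + 1) scale, which understates changes at values near the pseudocount of 1, against a log2 ratio of group FPKM of -2.18.

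STS had 64.4, 59.6 and 62.5 FPKM in siControl and 16.9, 15.9 and 19.2 in siChe-1. Both groups were tight, and the lowest siControl library was 3.10-fold above the highest siChe-1 library. The mean went from 62.1 ± 2.42 to 17.3 ± 1.68 FPKM (SD, n = 3 each), or 27.9% left, with a log2(FPKM + 1) change of -1.70 and a standard error of 0.07.

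COL18A1 had 12.9, 20.1 and 17.2 FPKM in siControl and 3.48, 5.85 and 4.47 in siChe-1. Its spread was the widest of the 6 relative to its level. The mean went from 16.7 ± 3.65 to 4.60 ± 1.19 FPKM (SD, n = 3 each), or 27.5% left, with a log2(FPKM + 1) change of -1.58 and a standard error of 0.26.

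PCCB had 28.7, 33.0 and 31.2 FPKM in siControl and 8.72, 10.03 and 8.74 in siChe-1, again 2 tight groups. The mean went from 31.0 ± 2.19 to 9.16 ± 0.7499 FPKM (SD, n = 3 each), or 29.6% left, with a log2(FPKM + 1) change of -1.57 and a standard error of 0.10.

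ABCC4 had 15.1, 11.6 and 14.9 FPKM in siControl and 7.35, 6.57 and 7.67 in siChe-1. The lowest siControl library was 1.52-fold above the highest siChe-1 library, the narrowest gap of the 6. The mean went from 13.9 ± 1.93 to 7.20 ± 0.568 FPKM (SD, n = 3 each), or 51.9% left, with a log2(FPKM + 1) change of -0.77 and a standard error of 0.11.

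**Figure D2:**
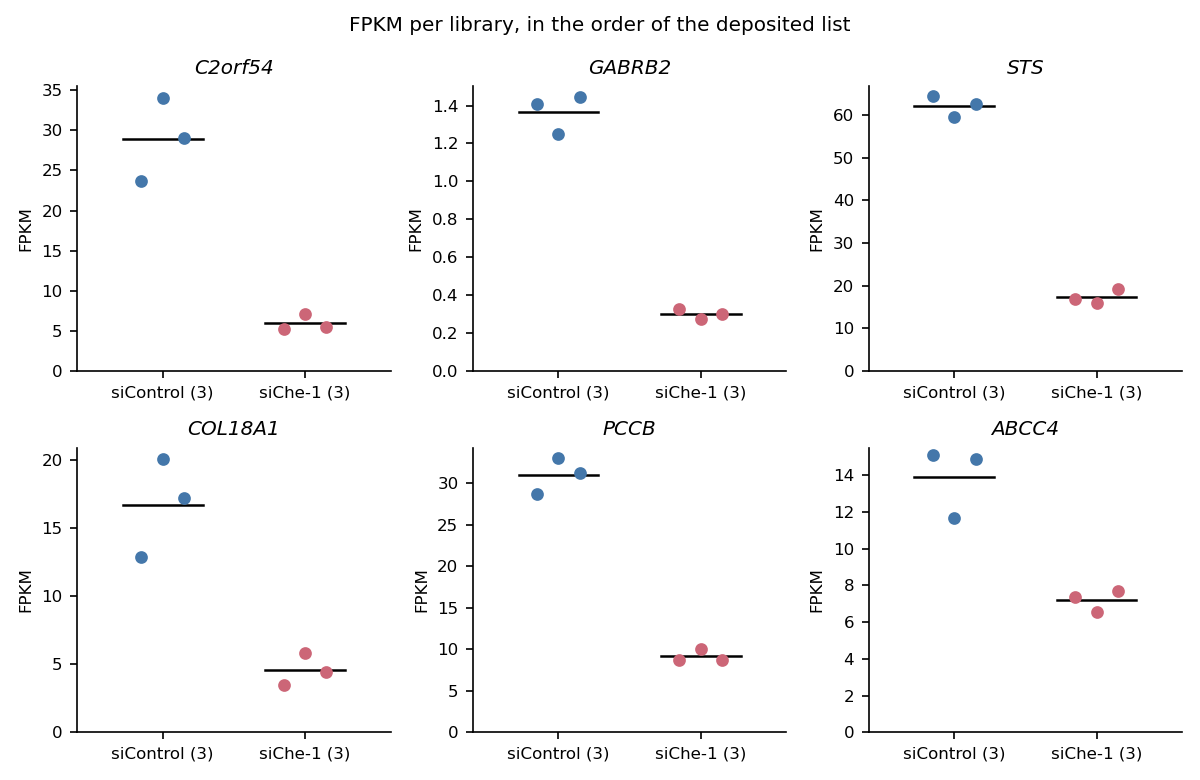
FPKM of each gene (y axis, linear from 0) for the 3 siControl and 3 siChe-1 libraries, in the order of the deposited list, with a bar at each group mean. The siChe-1 points lie below the siControl points in all 6 genes, and the second point in each group is an extreme of its group.

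The second value of each list was the highest in both groups for C2orf54, COL18A1 and PCCB and the lowest in both groups for GABRB2, STS and ABCC4. Over the 6285 tested genes, the second value was the highest in both groups or the lowest in both groups for 57.9%. The positions carry no replicate number, and what this pattern reflects was not tested.

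Per length, levels in siControl ran in the order STS, PCCB, C2orf54, COL18A1, ABCC4 and GABRB2. PCCB and C2orf54 did not differ beyond their spread, nor did COL18A1 and ABCC4. In siChe-1 the order of FPKM levels was STS, PCCB, ABCC4, C2orf54, COL18A1 and GABRB2, in which ABCC4 and C2orf54 overlapped, as did C2orf54 and COL18A1.

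Ranks by fall on the FPKM scale were 6 for C2orf54, 8 for STS, 10 for COL18A1, 11 for PCCB and 115 for ABCC4 of 6285 tested genes. The genes that fell further than C2orf54 were AATF, which ranked 5, and 4 small RNA genes, MIR25, MIR1260B, SNORA27 and SNORD76, whose values are uncertain where such a gene lies inside a host gene. SNORA80 also came before STS. With no pseudocount, the log2 ratio placed C2orf54 at rank 4, COL18A1 at 6, STS at 7, PCCB at 8 and ABCC4 at 89 of the tested genes. GABRB2 was not one of them, and its ratio would have come at rank 5. Other genes under the FPKM minimum were not ranked.

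**Figure D3:**
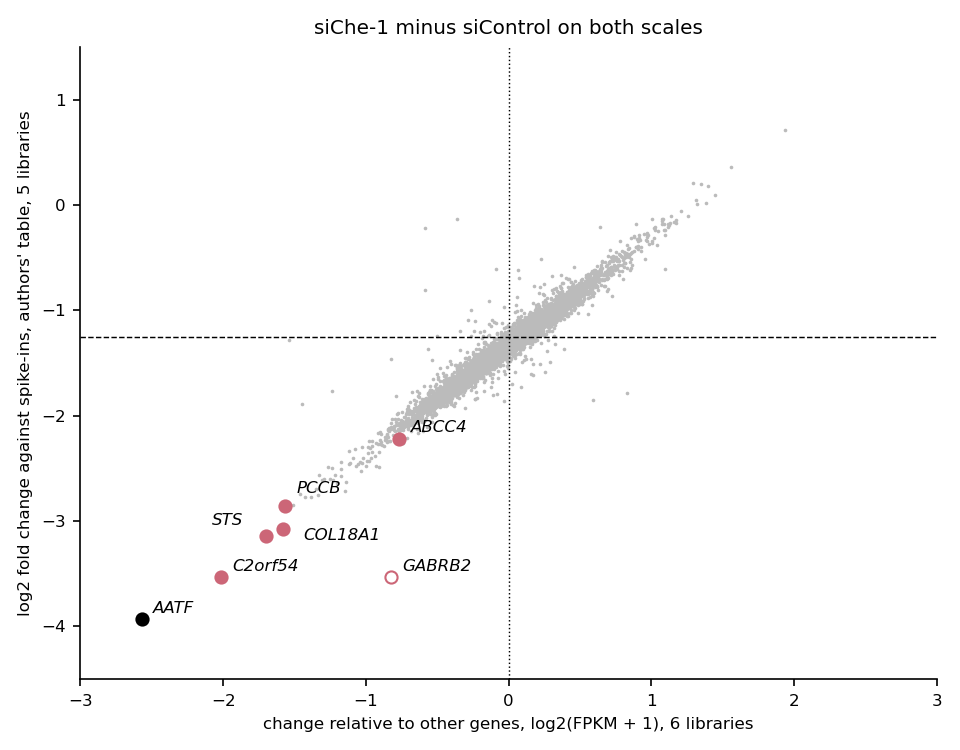
Log2 change of each gene in the authors' spike-in table (y axis) against its change in log2(FPKM + 1) after rescaling (x axis), for 6241 genes on both scales. The dashed line is the median of all genes (-1.25), red points are the 6 genes (GABRB2 open, under the FPKM minimum) and the black point is AATF. C2orf54, STS, COL18A1 and PCCB lie at the lower left with AATF, and ABCC4 lies closer to the mass of genes.

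At the level of transcripts, 8 were listed for the 6 genes, and every one of them had its 3 siChe-1 values below its 3 siControl values, against 16.8% of all 18750 transcripts. GABRB2 (NM_000813), STS (NM_000351), PCCB (NM_000532) and ABCC4 (NM_005845) had a single listed transcript each, so that their transcript values are the gene values above.

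COL18A1 NM_130445, whose GC-rich promoter is shown above, had 11.9, 18.9 and 15.9 FPKM in siControl and 3.01, 5.30 and 3.66 in siChe-1. Average levels went from 15.6 ± 3.54 to 3.99 ± 1.18 FPKM (SD, n = 3 each), or 25.6% left, with a log2 change in the authors' deposited table of -1.96. This transcript carried most of the gene's signal in every library.

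COL18A1 NM_030582 had 0.978, 1.17 and 1.35 FPKM in siControl and 0.474, 0.543 and 0.808 in siChe-1. It starts at the downstream promoter, whose window held a TATAAA match near its upstream end, far from the start. Average levels went from 1.16 ± 0.184 to 0.609 ± 0.176 FPKM (SD, n = 3 each), or 52.3% left, with a log2 change in the authors' deposited table of -0.93. Its groups did not overlap, but its fall was shallower than that of NM_130445. Its share of the gene's FPKM was 7.604%, 5.80% and 7.82% in siControl against 13.6%, 9.29% and 18.1% in siChe-1. The mean share went from 7.07% ± 1.11 to 13.7% ± 4.39 (SD, n = 3 each), and the groups did not overlap. How often the shares of other genes' transcripts separate in this way was not counted. NM_030582 was also a transcript of low level, at 1.35 FPKM or less in every library. No test is given, since the gene was chosen by its fall. Both transcripts share most exons, and how the reads were divided between them depends on the authors' estimate.

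C2orf54 NM_024861 had 16.3, 16.04 and 19.2 FPKM in siControl and 4.02, 3.56 and 3.41 in siChe-1. Average levels went from 17.2 ± 1.78 to 3.66 ± 0.320 FPKM (SD, n = 3 each), or 21.3% left. C2orf54 NM_001085437 had 7.41, 18.1 and 9.88 FPKM in siControl and 1.21, 3.59 and 2.04 in siChe-1, or 19.4% left. This transcript varied more within a group, and the second listed value was the highest in both groups. Its share of the gene was 31.3%, 53.0% and 33.96% in siControl against 23.2%, 50.2% and 37.4% in siChe-1, with groups that overlapped. The 2 C2orf54 transcripts thus kept similar parts of their siControl levels.

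**Figure D4:**
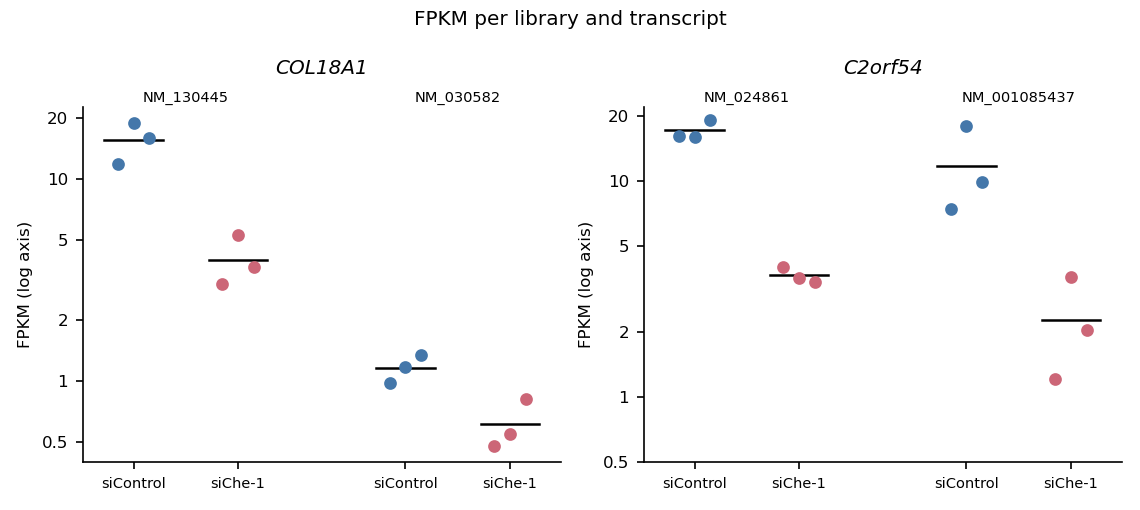
FPKM of the 2 listed transcripts of COL18A1 and the 2 of C2orf54 (y axis, log scale) in the 3 siControl and 3 siChe-1 libraries, with a bar at each group mean. NM_130445 goes to 3.99 FPKM while NM_030582, near 1.16 FPKM in siControl, keeps 52.3% of its level.

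The 6 genes lie on 6 chromosomes in hg19. C2orf54 lies at chr2:241825465-241835573 (minus strand), GABRB2 at chr5:160715436-160975130 (minus) and STS at chrX:7137472-7272682 (plus). COL18A1 lies at chr21:46825097-46933634 (plus), PCCB at chr3:135969167-136049013 (plus) and ABCC4 at chr13:95672083-95953687 (minus). All but C2orf54, at 10.1 kb, are long, from 79.8 kb for PCCB to 282 kb for ABCC4, and each of the 5 was longer than at least 76.6% of the tested genes. Across tested genes by locus length, the median change was -0.06 below 20 kb and 0.10 at 200 kb and above. Transcripts ranged from 5 exons in each C2orf54 transcript to 42 in COL18A1 NM_130445, by GENCODE.

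Related genes went both ways. In 6 lists of family and pathway genes, with the members left out, 46 genes were tested relative to other genes. limma called 7 lower and 10 higher (adjusted p under 0.05), or 37.0%, against 30.2% of all 6285 genes tested. With the authors' deposited scaling the balance turned, with 8 lower and 4 higher. The median change of the 46 was 0.01. On the spike-in scale, the authors called 61 of 96 lower, against 63.5% of all 12591 genes in the same table, and 0 higher, against 0.0635% of all genes.

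For the propionyl-CoA and branched-chain amino acid pathway, in which PCCB acts, 18 genes were tested, of which 2 were lower and 2 higher. MUT, the methylmalonyl-CoA mutase that acts after PCCB, went from 17.1 to 21.4 FPKM (change 0.40, limma adjusted p = 0.00968). HSD17B10, a mitochondrial dehydrogenase of isoleucine breakdown, went from 64.8 to 35.0 FPKM (change -0.78, limma adjusted p = 0.0124). DLD, the shared dehydrogenase subunit, did not pass the test, at 97.4 and 88.5 FPKM (limma adjusted p = 0.837). PCCA, the partner subunit of PCCB, was below the minimum, at 5.19 ± 0.642 and 6.18 ± 0.139 FPKM (SD, n = 3 each). It was named for its role. The other genes that passed, named after their values were seen, were MMACHC (-0.39) and MCEE (0.35).

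Of the sulfatase and steroid sulfate list, to which STS belongs, 8 genes were tested, with 1 lower and 3 higher. SUMF2, a sulfatase-modifying factor, went from 17.2 to 27.2 FPKM (change 0.72, limma adjusted p = 0.00984). SRD5A1, a steroid 5-alpha-reductase, went from 19.3 to 12.6 FPKM (change -0.49, limma adjusted p = 0.00351). IDS, the iduronate sulfatase, did not pass the test, at 68.1 and 73.4 FPKM (limma adjusted p = 0.282). SRD5A3 (0.39), named after its values were seen, also rose.

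Of the ABCC and cyclic nucleotide list, 4 genes were tested, with 1 lower and 1 higher. PDE3B, a phosphodiesterase, went from 13.8 to 7.34 FPKM (change -0.74, limma adjusted p = 0.00218). It passed the FPKM minimum through siControl and was not tested without siControl list position 1 or 3, while its call held with a minimum of 1 FPKM and with none. PDE7A, another phosphodiesterase, went from 12.9 to 19.8 FPKM (change 0.67, limma adjusted p = 0.00304). SLC9A3R1, a scaffold protein of transporters, did not pass the test, at 58.0 and 43.5 FPKM (limma adjusted p = 0.327). ABCC5 had 12.7 and 12.9 FPKM, and ABCC1 was below the minimum at 9.78 and 7.63 FPKM.

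Of the GABA list, 4 genes were tested, with 1 lower and 1 higher. GABARAP, an autophagy and receptor trafficking protein, went from 51.3 to 72.8 FPKM (change 0.59, limma adjusted p = 0.00224). TRAK2, a trafficking adaptor, went from 21.8 to 13.5 FPKM (change -0.56, limma adjusted p = 0.00521). GABARAPL2 did not pass the test, at 74.2 and 90.0 FPKM (limma adjusted p = 0.284).

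A GABA-A receptor needs several subunits, and 12 subunit genes were in the authors' deposited table. Of these, 3 had a mean of at least 10 normalized reads, GABRG1 at 2596, GABRB2 at 195 and GABRR2 at 31.3. The 5 alpha subunits had means of at most 4.12. GABRG1, the gamma-1 subunit, had 25.01 and 25.7 FPKM (change 0.13, limma adjusted p = 0.564), which did not pass the test.

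Of the basement membrane and collagen assembly list, to which COL18A1 belongs, 10 genes were tested, with 2 lower and 2 higher. GLT25D1, the collagen galactosyltransferase, went from 46.1 to 16.9 FPKM (change -1.31, limma adjusted p = 0.000376), nearly as far as COL18A1. PLOD2, a lysyl hydroxylase, went from 22.1 to 26.7 FPKM (change 0.35, limma adjusted p = 0.0305), though 8 of 11 alternative settings lost this call. PPIB, a collagen-folding isomerase, did not pass the test, at 921 and 942 FPKM (limma adjusted p = 0.413). P4HA2 (0.62) and SERPINH1 (-0.27), named after their values were seen, also passed. P4HA2, at 8.12 FPKM in siControl and 12.1 in siChe-1, reached the FPKM minimum through the group in which it was high, so its call carries little weight.

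Of the Mab-21 domain genes, 2 were tested. MB21D2 went from 15.99 to 18.7 FPKM (change 0.30, limma adjusted p = 0.0343), and 8 of 11 settings lost this call too. MB21D1, which encodes cGAS, the sensor of cytosolic DNA, did not pass the test, at 33.4 and 35.1 FPKM (limma adjusted p = 0.260).

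Among the genes near the 6, a single one passed the test. Within 500 kb, 27 genes had FPKM values and 12 were tested, of which 1 was lower and 0 were higher, with a median change of -0.10. Among all 6285 tested genes, 15.1% were lower and 15.1% higher. SLC19A1, the reduced folate carrier, lies 0.994 kb after COL18A1. It went from 12.4 ± 0.995 to 7.95 ± 0.818 FPKM (SD, n = 3 each; change -0.50, limma adjusted p = 0.0155). It passed the FPKM minimum through siControl and fell below it when any siControl library was left out, while its call held with a minimum of 1 FPKM and with none. With edgeR on the recovered reads scaled by TMM, an alternative added after seeing the data, 0 of 26 neighbours were lower and 4 higher at an adjusted p under 0.05, against 14.8% lower and 14.0% higher of all 12487 genes. Genes without FPKM values were not considered as neighbours. Of those with values, the nearest to C2orf54, KIF1A at 65.7 kb and MTERFD2 at 103 kb, had changes of -0.19 and -0.28 (limma adjusted p = 0.136 and 0.0858). STAG1, 6.99 kb after PCCB, had 0.17 (limma adjusted p = 0.172), and MSL2, 54.5 kb before it, had 0.11 (limma adjusted p = 0.569). HDHD1, 71.2 kb before STS, had -0.10 (limma adjusted p = 0.623), and DNAJC3, 376 kb after ABCC4, had -0.02 (limma adjusted p = 0.917). The nearest tested gene to GABRB2 was PTTG1, 860 kb away, with -0.38 (limma adjusted p = 0.0591).

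**Figure D5:**
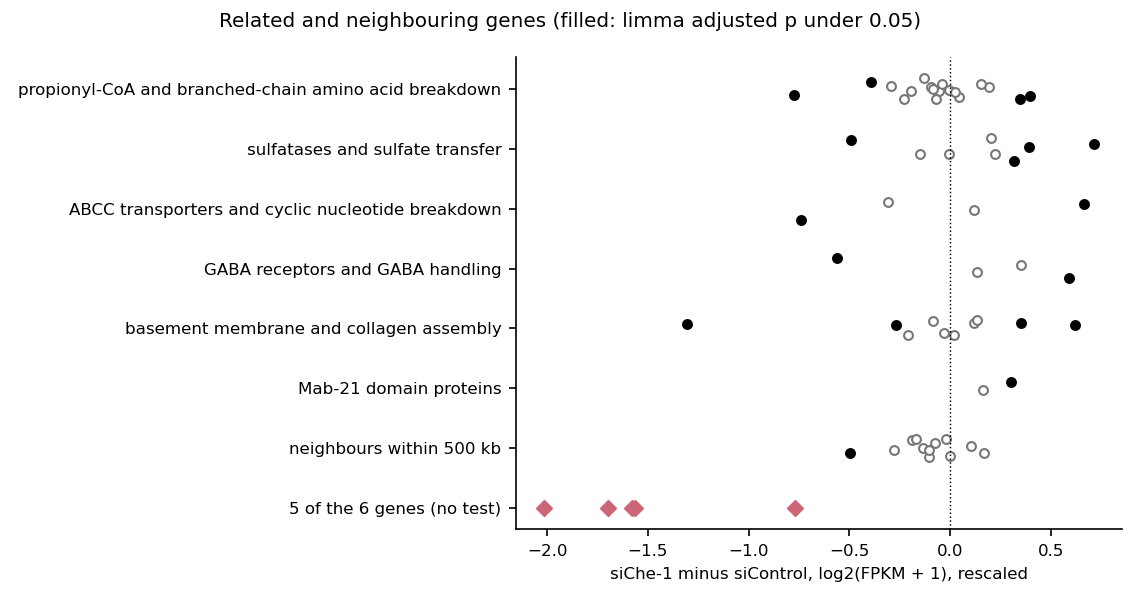
Change in log2(FPKM + 1) from siControl to siChe-1 (x axis) of the tested genes of the 6 lists, of tested neighbours within 500 kb and of the 5 genes above the FPKM minimum. Filled points passed limma's adjusted p of 0.05, and the related genes lie on both sides of 0 while the 5 lie from -2.02 to -0.77.

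The genes most alike in pattern were taken as those with the smallest root mean square distance over the 6 libraries. Values were log2(FPKM + 1), each gene centred on its siControl mean. Only genes with a mean of at least 10 FPKM were searched. The 6 genes themselves were left out of the search, so a closer match among them would not appear. For C2orf54 they were AATF (0.48), PM20D2 (0.49) and SHISA5 (0.49), which are far from it. For STS they were PM20D2 (0.18), RHEB (0.21) and SORD (0.22). For COL18A1 they were SHISA5 (0.22), EEF1A2 (0.24) and GLT25D1 (0.26), and for PCCB they were SHISA5 (0.17), GLT25D1 (0.19) and SORD (0.20). ABCC4 had close neighbours in HMMR, SBDSP1 and NOLC1, each at about 0.05. GABRB2 had LOC100861402, TCP1 and NUP50, also at about 0.05, on a change that the pseudocount makes small. The distance includes the size of the fall itself.

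All 11 plasma cell markers had FPKM values, and their sum ranged from 7379 to 10773 FPKM in siControl and from 8731 to 12214 in siChe-1. Most of that sum was IGJ, at 8739 and 9719 FPKM on average, and the other markers went both ways, with XBP1 at 290 and 196 and CD38 at 21.7 and 34.8 FPKM. None of 7 epithelial and 8 fibroblast and endothelial markers had an FPKM value, and 1 of 9 T cell and myeloid markers, CD3G, had a mean of 0.529. Libraries of the spike-in table held from 19536594 to 22269124 recovered gene reads.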

How the data were processed

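RNA was measured in 6 KMS-27 libraries, 3 siControl and 3 siChe-1, grouped by their titles. Per the submitters' processing notes, the tools were HTSeq, DESeq2, TopHat, Cufflinks and Cuffdiff, on hg19. Their roles and versions were not given in the sources used here. As deposited by the authors, the files hold FPKM per transcript (a group value and 3 unnumbered values per group), their log2 changes and p-values, and a gene table with normalized signal (mean reads scaled by spike-ins), ratio, log2 change and p-values. Raw counts of 92 spike-ins were also deposited by the authors. The files call siControl scr and siChe-1 iChe.

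Values per library on the spike-in scale were recovered from the group means of the gene table as whole reads, for 99.4% of 16444 genes (104 had more than 1 solution). The low siChe-1 means gave whole reads with replicates 1 and 2 (100% of 2139) and with no other pair (0%), which is how the libraries of that table were identified. The recovery was tested on simulated data, where 99.9% of 1500 genes came out right. Transcript FPKM were summed per gene, rescaled across libraries by the median of ratios and tested as log2(FPKM + 1) with limma 3.58.1 (trend, Benjamini-Hochberg, adjusted p under 0.05) for 6285 genes with a mean of at least 10 FPKM. Fold changes on that scale understate changes of low genes. Alternatives used edgeR 4.0.16 and DESeq2 1.42.0 on the recovered reads. On data made with known answers, limma recovered 39.5% of log2 changes of 0.5 and 88% of changes of 1 over 6285 genes. With edgeR, 85.5% of changes of 1 and 98% of changes of 2 were recovered over 12487 genes. The data made for edgeR held no error of the spike-in scaling factors. Those shares therefore do not cover the library-wide spread of the real spike-in scale.

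The members and lists were chosen with earlier results of these data known. Genes were named by rule: the 6 genes and AATF, and per list the most abundant tested gene and the 2 with the smallest p. The rule also took the nearest gene with FPKM values on each side of each of the 6. The 3 most alike in pattern, outside the 6, and genes of larger fall where 5 or fewer were named too. The nearest genes PNPLA4, LOC642852 and GPR180 were not tested for being under the FPKM minimum. Transcripts were matched to GENCODE starts on GRCh38, and 7 of 8 matched a RefSeq promoter window within 50 bases. Protein sequences were not used here.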

Additional observations from a re-analysis of the deposited data

How the results depend on the processing

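No gene that was named by rule and passed the test changed sign under the alternatives run for it. MMACHC, MCEE, SRD5A3, P4HA2 and SERPINH1, named after their values were seen, were not followed through the alternatives. The changes of DLD, DNAJC3 and HDHD1, which had not passed, changed sign in 3, 3 and 1 settings. The authors' table had 8009 calls on the spike-in scale (8001 lower, 8 higher), and edgeR on the recovered reads with the same kind of scaling gave 10549 (10525 lower, 24 higher). With edgeR kept and TMM over genes there were 3599 (1851 lower, 1748 higher), and with the median of ratios over genes 3608 (1893 lower, 1715 higher). With the replicate block, edgeR on the spike-in scale called 58 genes (57 lower, 1 higher). That model has almost as many terms as libraries, and replicate 3 is in siControl only. Little is left to estimate the spread from, so this count cannot be set against the others. Deviations of same-numbered libraries had r of 0.21 and 0.24 in the 2 pairs, and crossed pairs had r of -0.21 and -0.24. With 2 siChe-1 libraries the crossed values mirror the others by construction, so these values do not establish a pairing. The labels do not say that a number marks a shared batch. Leaving out 1 library gave 2849 to 11665 edgeR calls. The 2849 came without siChe-1 replicate 2 and 7761 came without siChe-1 replicate 1, where the lone siChe-1 library is assumed to vary like the siControl libraries.

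Relative to other genes, the 1897 calls became 2934 with a minimum of 1 FPKM and 3044 with none, and 984 to 1743 when a library was left out. Of these calls, 949 were higher and 948 lower. That split was 592 against 1279 with the deposited scaling, and 1221 against 713 when libraries were scaled by their upper quartile. The 17 related genes called (7 lower, 10 higher) became 9 to 14 when a library was left out, and 12 (8 lower, 4 higher) with the deposited scaling. The 1 neighbour called, of 12 tested, became 2 of 12 with the deposited scaling. It became 6 of 24 with a minimum of 1 FPKM, where 2934 of 10778 genes in all were called. With no minimum it became 7 of 27, against 3044 of 12075 genes in all. There were 6 of 25 within 1 Mb. With edgeR and TMM on recovered reads, an alternative added after seeing the data, there were 4 of 26. Leaving out a siControl library gave 0 of 10, with SLC19A1 under the FPKM minimum, and leaving out a siChe-1 library gave 1 of 12. The cause of the other shifts was not tested. MTERFD2 gained a call in 3 of 8 settings and PTTG1 in 2 of 11. Depth limits GABRB2 most, at 42 and 48 reads in siChe-1.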
